A study of Nicotiana tabacum with 12 samples.

Results

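The genes described here are LOC107819933, named low-temperature-induced 65 kDa protein-like (LTI65-like), and LOC107775665, named protein LE25-like. They are 2 of the 45034 genes in the deposited tables of a tobacco seedling RNA-seq study. Both were chosen from the authors' deposited table of genes higher 48 h after induction, which holds 604 genes with at least a 1.5-fold difference and an unadjusted p under 0.05. Their difference at 48 h is therefore a description of why they were picked, and it is given without a test. The 4 h comparison did not choose them and was tested. The change with age in control seedlings uses the 48 h controls, 1 arm of the comparison that chose them, and is likewise given without a test.

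All libraries came from T2 seedlings of Nicotiana tabacum (SR1, cultivar Petit Havana) that carried AmMIXTA, a snapdragon gene for a MYB transcription factor, behind a promoter switched on by β-estradiol. The study asked which genes respond as glandular trichomes, which are secreting hairs, form on cotyledons that normally lack them. The 4 groups of 3 libraries were control and estradiol-treated seedlings at 4 h, aged 7 days, and control and estradiol-treated seedlings at 48 h, aged 9 days. Each collection pooled the aerial parts of 15 seedlings, and polyadenylated RNA was sequenced. Control seedlings carried the transgene and received no estradiol. The labels also describe growth under estradiol for 7 days, which does not match collection 4 h and 48 h after induction. The times in the sample titles were used here, so the length of exposure is uncertain. Estradiol-treated seedlings without the transgene were not analysed here, so a response to estradiol and a response to AmMIXTA cannot be told apart. The labels do not say how many transgenic lines were used, nor that the replicates came from separate cultures, so p-values speak of the spread among these libraries, which may be technical.

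Late embryogenesis abundant (LEA) proteins are small or medium-sized, very hydrophilic proteins that accumulate in seeds as they dry. In leaves and shoots they accumulate during drought, salt stress or cold, commonly through the hormone abscisic acid, and they are thought to shield other proteins and membranes from damage by water loss. LTI65 of Arabidopsis, also called RD29B, is a gene widely used as a reporter of abscisic acid and osmotic stress. LE25 is a LEA protein of tomato, found in drying seeds and in leaves short of water. In the abscisic acid pathway, PYL receptors bind the hormone, transcription factors switch on LEA genes, and 8'-hydroxylases break the hormone down. The roles of the tobacco genes themselves are known here only from these names.

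The values were read counts divided by a factor of each library, called normalised values here, and the 4 h and 48 h tables were scaled separately. Control replicate 1 held few reads at both times (917871 at 4 h and 1240033 at 48 h, against 12457701 to 30103266 elsewhere), so that 1 read was worth 0.697 and 0.280 in it and 0.0152 to 0.0322 in the other libraries. Of its counts from 1 to 20, 46.0% and 49.4% were even, against 68.4% to 74.7% in the others, and the cause of this was not tested. In the 48 h control group, replicates 2 and 3 had the same recovered reads in all 42659 genes. They differed by less than sampling noise, so they count here as 1 sample, called the repeated control, and that group has n = 2.

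At 48 h both genes were higher in every induced library than in any control library. LTI65-like stood at normalised values of 5.03 in control replicate 1 and 4.49 in the repeated control, and at 8.45, 8.24 and 11.6 in induced replicates 1, 2 and 3. These values rest on 18 and 170 reads in the controls and on 270, 366 and 758 reads in the induced libraries. The groups did not overlap, and induced replicate 3 was the highest library. The mean went from 4.76 ± 0.387 (SD, n = 2) to 9.41 ± 1.86 (SD, n = 3), 1.98-fold, with a log2 fold change of 0.90 (SE 0.16) on the scale of log2(value + 0.5).

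LE25-like was measured at a low level. It stood at 1.12 in control replicate 1 and 0.818 in the repeated control, and at 2.66, 2.34 and 2.96 in induced replicates 1, 2 and 3. The reads behind these values were 4 and 31 in the controls and 85, 104 and 194 in the induced libraries. The groups again did not overlap, and the exact 95% Poisson interval of control replicate 1, 0.305 to 2.86, which covers counting error only, reached the level of 2 of the 3 induced libraries. The mean went from 0.969 ± 0.213 (SD, n = 2) to 2.65 ± 0.309 (SD, n = 3), 2.74-fold. Its log2 fold change of 1.11 (SE 0.20) understates the change of so low a gene, and on recovered reads edgeR gave 1.62.

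In the authors' deposited table LTI65-like has a fold of 2.02 with an unadjusted p of 0.0121, and it is number 179 of 604 by fold. In the same authors' deposited table LE25-like has a fold of 2.89 with an unadjusted p of 0.00106, and it is number 42 of 604. That table holds 1.42% of the genes measured at 48 h. Both genes still meet that rule when the repeated control is counted once, on the same values that chose them. Of the 31565 genes tested at 48 h, 12.5% had every induced library above every control, so an absence of overlap alone is common there. In these mixed tissues, more cells of a type and more RNA per cell cannot be told apart.

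**Figure D1:**
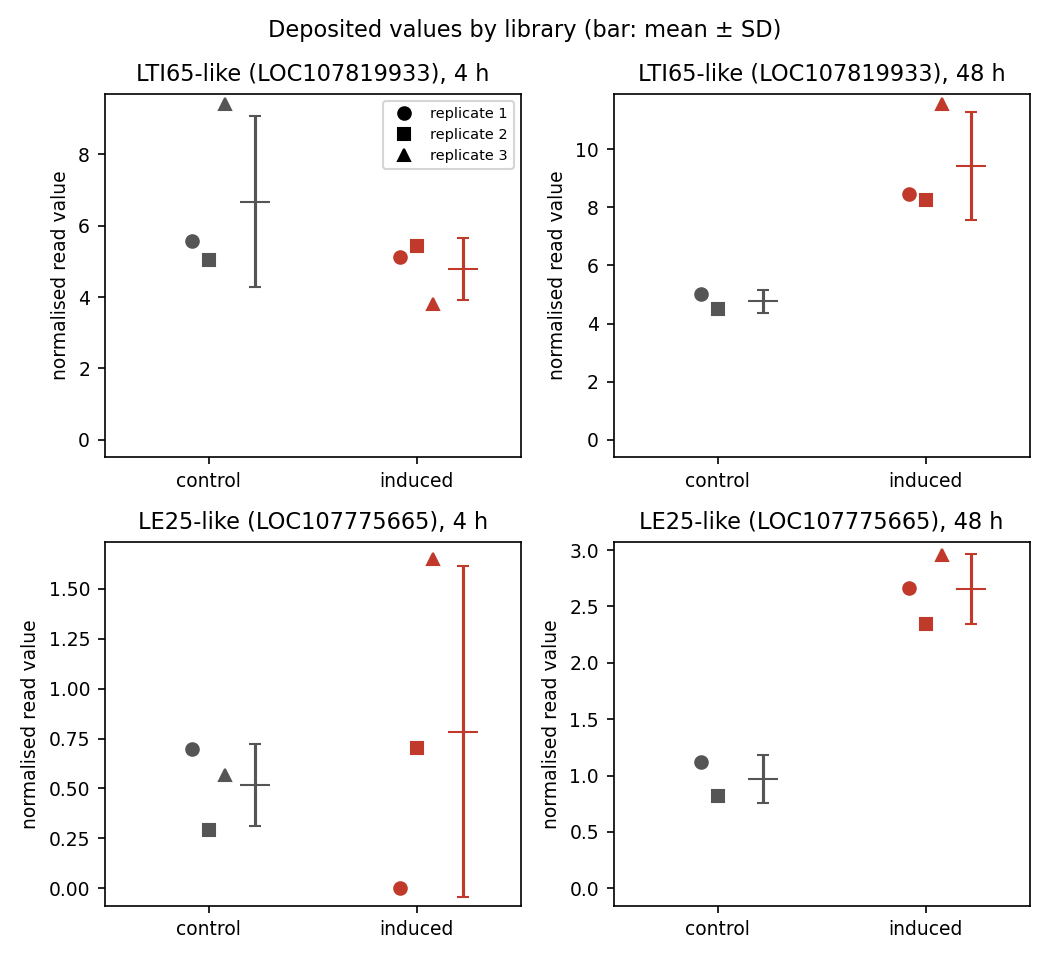
Normalised value (vertical axis, each time scaled separately) of LTI65-like and LE25-like in each library, with control in grey and induced in red; symbols mark the replicate and bars the mean ± SD. The repeated 48 h control is drawn once as replicate 2, all induced libraries lie above the controls at 48 h, and the groups overlap at 4 h.

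At 4 h neither gene was called. LTI65-like stood at 5.57, 5.03 and 9.43 in control replicates 1, 2 and 3 (8, 156 and 367 reads) and at 5.11, 5.45 and 3.81 in induced replicates 1, 2 and 3 (214, 255 and 127 reads). The groups overlapped, and control replicate 3 stood above all the others. The means were 6.68 ± 2.40 in control and 4.79 ± 0.866 in induced seedlings (SD, n = 3 each), a log2 fold change of -0.40 (SE 0.20) with an adjusted p of 0.903 by limma. The log2 fold change was -0.15 without control replicate 3. This fit did not pair the libraries, and with pairing by library number the adjusted p was 0.325 by limma. Over all 37238 genes tested at 4 h, 0.352% were called without pairing.

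LE25-like was near the limit of measurement at 4 h. Its normalised values were 0.697, 0.290 and 0.565 in control replicates 1, 2 and 3, which is 1, 9 and 22 reads. In induced replicates 1, 2 and 3 they were 0, 0.705 and 1.65, which is 0, 33 and 55 reads. The groups overlapped, and the induced libraries spanned the whole range seen at 4 h. The 0 in induced replicate 1 allows a value of up to 0.0717 (3 reads), and 35 of the 44403 genes were at 0 in that library. A single library reached a value of 1, so the gene missed the filter and was not tested, with a difference of 0.12 in mean log2(value + 0.5). Without induced replicate 3 that difference was -0.37 and without induced replicate 1 it was 0.68, so no direction can be given.

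The second LTI65-like gene, described further on, was also at 0 reads in induced replicate 1 at 4 h and highest in induced replicate 3 (40 reads). The 2 genes thus ordered the 3 induced libraries in the same way.

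To place all 4 groups on one scale, the recovered reads of both tables were scaled together to CPM, the reads of a gene relative to the total of its library. LTI65-like was lowest in induced seedlings at 4 h (7.20 ± 1.31 CPM, SD, n = 3), followed by control at 4 h (10.1 ± 3.57, n = 3), control at 48 h (13.5 ± 1.12, n = 2) and induced at 48 h (26.7 ± 5.29, n = 3). Each of the first 3 groups overlapped its neighbour in that order, and the induced 48 h libraries, at 23.4 to 32.8 CPM, stood apart. LE25-like ran from 0.784 ± 0.322 CPM in control at 4 h and 1.18 ± 1.24 in induced at 4 h (SD, n = 3 each) to 2.74 ± 0.606 in control at 48 h (n = 2) and 7.53 ± 0.878 in induced at 48 h (n = 3). Here too neighbours among the first 3 groups overlapped, and the induced 48 h libraries, at 6.64 to 8.40 CPM, did not.

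The control seedlings gave a comparison between 7 and 9 days of age that induction does not enter, although it shares its libraries with the controls of both induction comparisons. LTI65-like had a log2 difference of 0.45 (SE 0.23, day 9 minus day 7), and the groups overlapped. It was 0.71 when control replicate 3 at 4 h, the highest of its group, was left out. LE25-like had a log2 difference of 1.36 (SE 0.58), and both day 9 controls lay above the 3 day 7 controls, as was so for 18.6% of the 41261 genes measured in this comparison. Control replicate 1 held 1 LE25-like read at day 7 and 4 at day 9.

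Within induced seedlings the difference from 4 h to 48 h was 1.82 for LTI65-like and 2.59 for LE25-like on the log2 CPM scale. It uses the 48 h libraries that chose the genes and is given as a description.

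**Figure D2:**
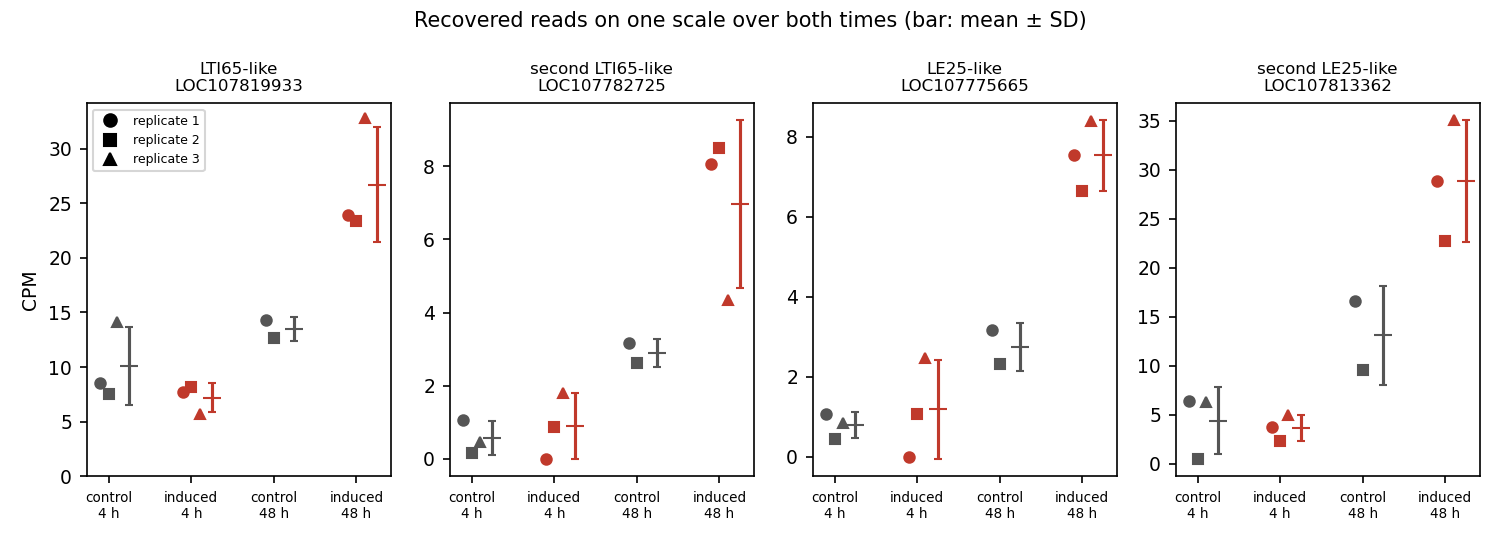
CPM (vertical axis, linear, a scale of its own in each panel) of LTI65-like, LE25-like and their same-named second genes in the 4 groups; grey is control, red is induced, symbols mark the replicate and bars the mean ± SD. In each panel the induced 48 h libraries are the highest, and the 4 h groups overlap.

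Each gene has a second gene of the same name among the 604 genes of the authors' deposited table for 48 h. The second LTI65-like gene (LOC107782725) stood at 1.12 in control replicate 1 and 0.924 in the repeated control at 48 h, and at 2.85, 2.99 and 1.52 in induced replicates 1, 2 and 3. Induced replicate 3, the highest library for the first gene, was the lowest induced library for the second. Its log2 fold change was 0.92 (SE 0.23). The second LE25-like gene (LOC107813362) stood at 5.87 and 3.38 in those controls and at 10.2, 7.99 and 12.3 in the induced libraries, with a log2 fold change of 1.08 (SE 0.23). With the repeated control counted once, the first genes still meet the authors' rule and the second genes do not. The folds of means of the second genes, 2.40 and 2.20, lay between those of LTI65-like (1.98) and LE25-like (2.74). These same values chose the genes, so whether first and second genes differ was not tested.

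At 4 h the second LE25-like gene (LOC107813362) varied within the control group, with 4.18, 0.322 and 4.21 in replicates 1, 2 and 3, against 2.46, 1.56 and 3.30 in induced libraries. Its log2 fold change was 0.12 (SE 0.85, adjusted p = 0.998 by limma). The second LTI65-like gene missed the filter at 4 h, with 0.0967 to 0.697 in control and 0 to 1.20 in induced libraries. Between day 7 and day 9 controls the second LTI65-like gene had a log2 difference of 1.77 (SE 0.57). The second LE25-like gene had a difference of 1.87 (SE 0.84), which was 0.93 without control replicate 2 at 4 h, its lowest library. Whether the authors' counting split reads between copies of a gene in the tobacco genome is not given in the sources used here, so the division of reads between same-named genes is uncertain.

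Over the 11 distinct libraries, log2(CPM + 0.5) of LE25-like correlated with the second LTI65-like gene at 0.97, with the second LE25-like gene at 0.85 and with LTI65-like at 0.79. LTI65-like and its own namesake correlated at 0.75. These libraries share the same 4 groups and, for low genes, the coarse steps of control replicate 1, and the 4 coefficients differed little without the 2 libraries of few reads (0.97, 0.85, 0.78 and 0.75).

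The LEA list held 7 genes by name, the 2 genes, their namesakes and 3 others. All 7 come from the authors' deposited table for 48 h, so the list is not independent evidence of that direction, and no test of it at 48 h is given. Descriptions stood only in the tables of higher genes (581 genes), and LEA genes without a name may have been measured too. At 48 h the 5 that passed the filter had log2 fold changes from 0.58 to 1.11 and a median of 0.92, against 0.02 over all genes tested. Among controls, LE25-like and the second LTI65-like gene reached a value of 1 in replicate 1 only. They passed the filter through their induced libraries, so the filter too shaped this median. LE25-like had the highest value of the 5, and LTI65-like lay just under the median. Late embryogenesis abundant protein D-34-like (LOC107797122) had the smallest difference of those tested at 48 h, 0.58 (SE 0.21), with normalised means of 1.25 ± 0.205 (SD, n = 2) and 2.13 ± 0.452 (SD, n = 3). The remaining 2, 11 kDa LEA-like (LOC107777457) and Lea14 homolog (LOC107817682), were below the filter.

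At 4 h the 3 LEA genes tested had a median of -0.11, against 0.02 over all genes, with LTI65-like the lowest, and 0 were called by limma (0 at an unadjusted p under 0.05, which 5.74% of all genes reached), edgeR or DESeq2. Between control seedlings of 7 and 9 days all 6 that passed the filter had a positive difference, from 0.28 to 1.87 with a median of 0.93, against -0.01 over all genes, of which 48.8% were positive. Embryonic protein DC-8-like (LOC107832167), named for a LEA protein of carrot embryos and added after its values were seen, had an age difference of 1.77 (SE 0.29). Its difference at 48 h was 0.52 (SE 0.18).

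Genes of the abscisic acid pathway varied in direction. The PYL2-like abscisic acid receptor (LOC107815995) had a log2 fold change of 0.65 (SE 0.17) at 4 h, where the authors' deposited table chose it, and of -0.28 (SE 0.18) at 48 h. Between day 7 and day 9 controls its difference was 1.17 (SE 0.21), given without a test since the 4 h controls took part in that choice. ABF2 (LOC107824387), so named in the RefSeq gene table, stood at 9.10 ± 1.37 (SD, n = 2) in control and 18.8 ± 7.31 (SD, n = 3) in induced seedlings at 48 h. Its log2 fold change there was 0.95 (SE 0.31, adjusted p = 0.766 by limma), close in size to that of LTI65-like, and at 4 h it was -0.31 (SE 0.26, adjusted p = 0.984 by limma). Neither table chose ABF2 or ABF1. With age, where 12.2% of all genes were called, ABF2 rose by 1.74 (SE 0.39, adjusted p = 0.0243 by limma). That call held in 12 of 16 alternatives, among them DESeq2 (1.69, adjusted p = 0.00781). It ended without control replicate 1 at 4 h (1.75, adjusted p = 0.0658 by limma) and by edgeR (1.63, adjusted p = 0.0805). The difference was 1.58 without control replicate 1 at 48 h and 1.89 without the repeated control, each leaving 1 control sample at 48 h. ABF1 (LOC107815582) had log2 fold changes of 0.02 (SE 0.14) at 4 h and -0.30 (SE 0.20) at 48 h, and an age difference of 0.42 (SE 0.19, adjusted p = 0.158 by limma).

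Of the 3 genes of abscisic acid signalling, 0 were called at 4 h or 48 h by limma. Over all genes tested at 48 h the share called was 0.0127% (4 of 31565). An unadjusted p under 0.05 was reached at 48 h by ABF2, as by 5.9% of all genes, and at 4 h by PYL2-like, which was chosen there by such a p. edgeR and DESeq2 on recovered reads also called 0 of the 3 at both times. With age all 3 had a positive difference, as had 48.8% of all genes. Their median of 1.17, against -0.01 over all genes, is the value of PYL2-like, whose choice used the 4 h controls. The 2 genes of abscisic acid breakdown were both chosen by the authors' 48 h table. The 8'-hydroxylase 1-like gene (LOC107804348) went from 0.306 ± 0.358 (SD, n = 2) to 0.925 ± 0.242 (SD, n = 3) at 48 h. The 8'-hydroxylase 4-like gene (LOC107820622) went from 0.245 ± 0.0485 to 0.560 ± 0.0610 in the same groups, and both were below the filter there. A trehalose-phosphate synthase (LOC107785765), which makes the precursor of a protective sugar, had log2 fold changes of 0.55 at 4 h and -0.17 at 48 h, the reverse order of LTI65-like, but it was chosen by the authors' 4 h table and LTI65-like by the one for 48 h. The BURP domain protein USPL1-like (LOC107805585), of a family that includes drought-response genes, had -0.44 at 4 h (SE 0.23, adjusted p = 0.910 by limma) and 0.47 at 48 h (SE 0.21). An osmotin-like protein (LOC107794478), of a family known for accumulating under osmotic stress, was in the 4 h table only, at 0.413 ± 0.272 in control and 1.24 ± 0.399 in induced seedlings (SD, n = 3 each).

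**Figure D3:**
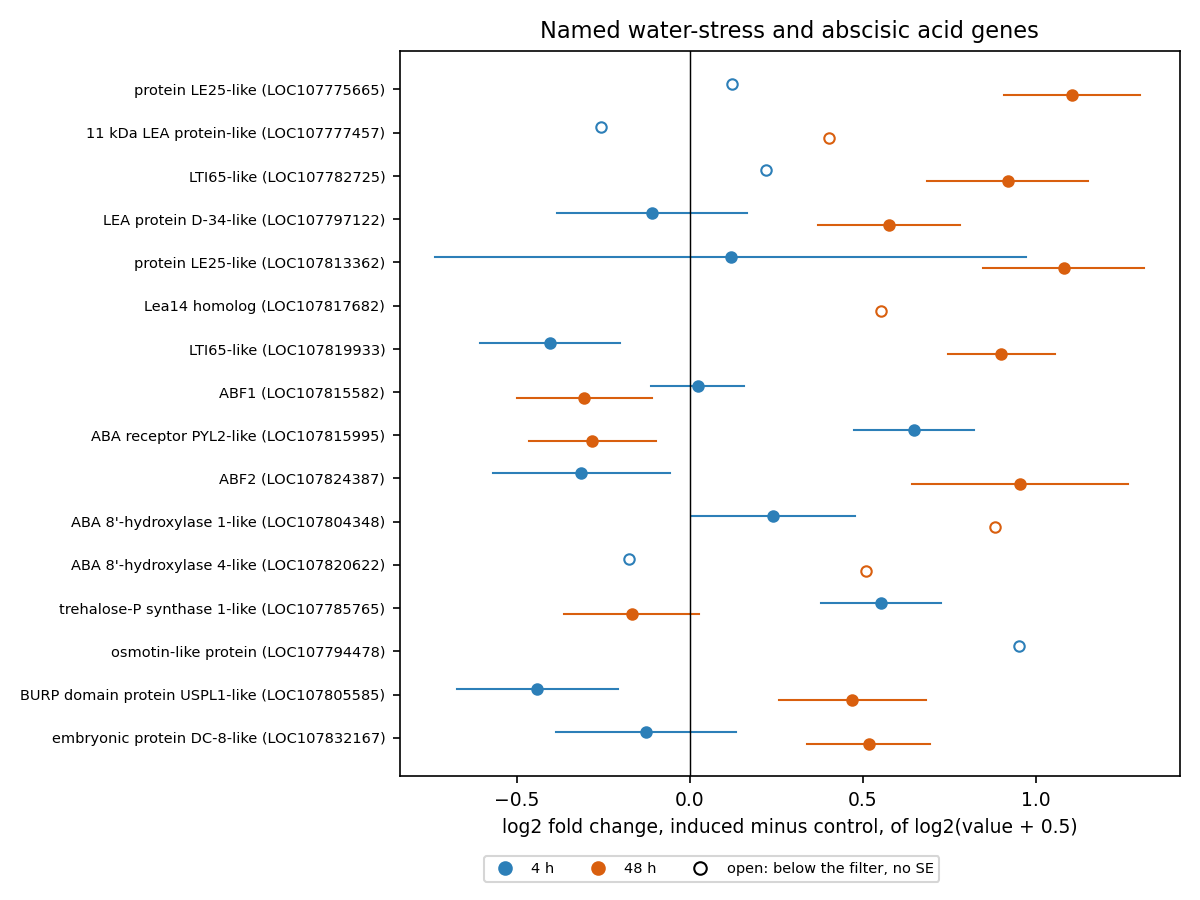
Log2 fold change of induced against control seedlings (horizontal axis) for named LEA, abscisic acid and water-stress genes at 4 h (blue) and 48 h (orange); bars are the SE and open points are genes below the filter, with no SE. LTI65-like (LOC107819933) lies at -0.40 and 0.90, and LE25-like (LOC107775665) at 0.12 and 1.11.

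In the gene order of the RefSeq table, the 11 kDa LEA-like gene (LOC107777457) lies 2 places from LE25-like, with a long non-coding RNA gene between them. At 48 h this neighbour stood at 0.464 ± 0.134 in control (SD, n = 2) and 0.773 ± 0.149 in induced seedlings (SD, n = 3), below the filter. On the other side of LE25-like, LOC107784966 had a log2 fold change of 0.74 at 48 h and LOC107828626 one of 0.26. The table's assembly is ASM71507v2, which may not be the one the authors used, so no coordinates are given. The nearest neighbours of LTI65-like were not among the genes measured.

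The genes most like each in pattern were the 5 with the highest Pearson correlation of log2(CPM + 0.5) over the 11 distinct libraries, among 31382 other genes for LTI65-like and 31383 for LE25-like. For LTI65-like they reached 0.96 to 0.98, and the one with a name was a PI-PLC X-box domain protein (LOC107807780, 0.97), which had log2 fold changes of -0.26 at 4 h and 0.57 at 48 h. The closest, LOC107822097, had -0.48 and 1.23. For LE25-like they reached 0.93 to 0.96. Among them were 3-hydroxy-3-methylglutaryl-coenzyme A reductase 1 (LOC107772124, 0.93), an enzyme that supplies precursors of sterols and other isoprenoids, and a type IV inositol polyphosphate 5-phosphatase (LOC107831127, 0.93). They had log2 fold changes of 0.79 and 0.81 at 48 h and of 0.00 and 0.15 at 4 h. Without the 2 libraries of few reads, 2 of the 5 stayed among the top 5 for LTI65-like and 1 of the 5 for LE25-like. As the top of so many genes, these correlations are descriptions only.

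The make-up of the tissue was followed with marker genes. None of the named genes was a green shoot marker. Plastid genes held 4.57% to 8.52% of the reads in every library, and whether this follows green tissue in polyadenylated RNA was not tested. At 4 h their share was lower in every induced library (4.57% to 5.84%) than in any control (6.57% to 7.40%), while at 48 h the groups overlapped (5.80% to 6.74% in control and 6.28% to 8.52% in induced). For seed and embryo 1 marker was named, a probable peroxygenase of a family known from seed oil bodies (LOC107780594), and oleosins and storage proteins were not among the named genes. Its value was 0.713 to 0.839 in control and 1.10 to 1.38 in induced libraries at 48 h, beside the higher LTI65-like and LE25-like values. The groups did not overlap, as was so for 12.5% of all genes tested at 48 h. Its age difference was -1.498 on the log2 scale (SE 0.24), opposite in sign to those of LTI65-like and LE25-like. The guard cell marker HT1-like (LOC107764913) was at 0.634 to 0.839 in control and 1.13 to 1.73 in induced libraries at 48 h. The peroxygenase and HT1-like both come from the authors' 48 h table, so their direction there was chosen too, and the 48 h controls of that choice enter the age difference. The 9 root markers summed to 4.45 to 15.3 in control (median 4.62) and 20.01 to 52.4 in induced libraries at 4 h. The 15.3 is from control replicate 1, where 1 read was worth 0.697. Of the 9 markers, 5 come from the authors' 4 h table. At 4 h limma and DESeq2 called 2 of the root markers, PMT2 (LOC107799426) and NtMATE2 (LOC107807968), and edgeR called 5. Limma called 0.352% of all genes. Both PMT2 and NtMATE2 were chosen by the authors' 4 h table, so their calls are no independent test. PMT2 was at 0.103 to 0.697 in control and NtMATE2 at 0.483 to 1.39, and both passed the filter only through their induced libraries. Of the edgeR calls, only NtPMT3 (LOC107799425) lies outside the authors' 4 h table. It was at 0.226 to 2.09 in control, the highest being 3 reads in replicate 1, and at 2.16 to 5.28 in induced libraries. It too passed the filter only through the induced libraries, so its call is no independent test. At 48 h the root marker sums were 3.36 to 13.3 in control and 1.596 to 9.59 in induced libraries. Of the 9, 4 were at 0 in an induced library. The part of these cell types in the LTI65-like and LE25-like values was not tested.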

How the data were processed

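The authors deposited, for each time point, a table of all genes (44403 at 4 h, 42659 at 48 h) and a table of higher genes. The deposited per-library values are a signal: each is a whole multiple of 1 step per library, and dividing by it gave whole reads for 100% of values within a tolerance of 0.01. The deposited ratio columns are linear folds of induced over control means, and the deposited p-value columns are unadjusted. The submitters' processing notes list edgeR without a version. The aligner, the counter and the build were not given in the sources used here. A further 12 per-sample columns of the tables of higher genes were not used.

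Genes with inflated single entries (above 5000 and over 20-fold their median, 4 at 4 h and 14 at 48 h, up to 69.3% of a library's reads) were left out. Tests were limma (trend, robust) on log2(value + 0.5) for genes with at least 1 in 3 libraries, adjusted by Benjamini-Hochberg over all genes and called at 0.05. The age comparison was fitted over 4 groups on TMM-scaled CPM of the recovered reads. For genes chosen by either table of higher genes it is given without a test, although a test was planned, since it shares control libraries with that choice. The fits were checked on simulated data. On recovered reads edgeR called 95 genes at 4 h and 3 at 48 h. Versions were DESeq2 1.42.0, edgeR 4.0.16, limma 3.58.1 and R 4.3.3. Other pseudocounts, filters, scalings, left-out libraries and blocks were tried.

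At 4 h, libraries with the same number in the sample description deviated together (correlations 0.17, 0.26 and 0.18 over 17067 genes). Pairing by these numbers was tried as an alternative fit, while the main tests were fitted without pairing. At 48 h only 2 controls remain and their deviations mirror each other.

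The genes and lists were chosen with earlier results of these data known. Named besides them were same-named genes, list members with the largest and smallest change or a call, and the 5 closest genes in pattern. Relatives were to be found by protein comparison, for which no sequences were at hand, so names were used. Of the 45034 genes, 39993 matched the RefSeq gene table.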

Additional observations from a re-analysis of the deposited data

How the results depend on the processing

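The LTI65-like difference at 48 h ran from 0.75 to 1.04 over 19 alternatives. Both genes were chosen for being higher at 48 h, and their groups did not overlap there. Pseudocounts, filters and left-out libraries could therefore not change the sign, which is no added support. The 4 h value of LTI65-like stayed negative and uncalled in all 17 (-0.57 to -0.15, adjusted p of at least 0.325 by limma, edgeR or DESeq2). Under the replicate block by library number it was -0.40 (adjusted p = 0.325 by limma), and the pairing did not change that call. The LTI65-like age difference was 0.28 to 0.71 when 1 library was left out and positive in all 16 alternatives. The LE25-like difference at 48 h ran from 0.89 to 1.62 over 18 alternatives, with the same limit on its sign. It was 1.37 with a pseudocount of 0.1, 0.89 with 1, 1.62 by edgeR, 1.597 by DESeq2, 1.30 with RLE scaling and 1.31 with both times in 1 fit. Its 4 h value was -0.18 with a pseudocount of 0.1 and -0.37 to 0.68 when 1 library was left out, and its age difference was positive in 16 of 16 (1.08 to 1.93). A filter of 5 left LE25-like out of both induction comparisons. Calls over all genes moved from 131 to 376 at 4 h and from 4 to 429 at 48 h under the replicate block by library number, to 242 and 148 by title number, and to 646 or 1 at 48 h with the repeated control paired otherwise, a pairing added after seeing the data. They were 52 (4 h) and 10 (48 h) with both times in 1 fit, 14 at 48 h by DESeq2, and 85 to 156 (4 h) and 3 to 61 (48 h) when 1 library was left out. For age they moved from 5025 to 8501 with the repeated control counted as 2 samples, 2735 by DESeq2 and 2243 without it. The calls of PMT2 and NtMATE2 at 4 h ended with both times in 1 fit (2.16 and 1.81). The depth of control replicate 1 limits low genes such as LE25-like most.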
